A study of Homo sapiens with 2 samples.

Results

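The 10 genes PVT1, TRIB1, NSMCE2, MTSS1, ZNF572, FAM91A1, TATDN1, RNF139, FAM84B and GSDMC lie around MYC on the long arm of human chromosome 8, in band 8q24. They were chosen by name, as neighbours of a gene that is amplified in HL-60 cells, and 9 of the 10 had a probe set of their own among the 18404 named genes of the array. PVT1 was not analysed here. FAM84B is listed under its newer symbol LRATD2. The samples were HL-60, an established human promyelocytic leukaemia cell line, labelled as wild type (WT) and grown in serum-containing medium, with no treatment named. Total RNA was measured on 2 Affymetrix Human Gene ST arrays, replicates 1 and 2 of 1 group. There is no other genotype, treatment, time or cell line, so the comparisons are between each gene and array background, between the genes and all genes, and between the replicate arrays. Whether replicates 1 and 2 were grown apart is not stated, and their spread may be a technical one. DNA copy number was not measured.

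MYC encodes a transcription factor that drives growth and proliferation, and its locus is surrounded by long stretches with few protein-coding genes that carry enhancers and long noncoding RNAs. When the locus is amplified, the amplified DNA often takes in neighbouring genes along with MYC, and such passengers may or may not be transcribed at a higher rate. In myeloid cells the neighbour best known for a role of its own is TRIB1, a pseudokinase that brings the ubiquitin ligase COP1 to the granulocytic transcription factor C/EBP alpha and so leads to its degradation.

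All values are log2 signals per gene after RMA, the authors' background correction, quantile normalization and summary over probes. A gene was called above background where it exceeded the 95th percentile of 360 olfactory receptor genes on both arrays, which lay at 2.98 on replicate 1 and 2.88 on replicate 2. A stricter second threshold came from 116 genes of other restricted families (beta-defensins, bitter taste receptors and keratin-associated proteins), at 5.40 and 5.22. The SD of the array difference over all genes was 0.39, which is 0.28 per array, or 1.21-fold. That spread is the guide to error used here, because an SD from 2 values is itself uncertain. A signal also depends on the probes of its probe set, so each gene was set against background and not ranked against its neighbours by amount of RNA.

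The labelled cell type was checked against fixed marker lists. All 7 measured promyelocyte markers were above the olfactory threshold on both arrays, beside 55.8% of all named genes. So were 1 of 4 T cell, 2 of 3 B cell, 1 of 3 erythroid, 0 of 4 monocyte and 1 of 5 epithelial and stromal markers. The second threshold was passed on both arrays by 4 of the 7 promyelocyte markers, beside 17.1% of all genes, and by no marker of the other lists. ELANE (4.47 and 4.71) and AZU1 (3.01 and 3.19) passed it on neither array, and MS4A3 on replicate 1 only. The promyelocyte markers also differed between the arrays: 5 of 7 were lower on replicate 2, as were 9687 of the 18404 named genes. CTSG was lower by 1.75, PRTN3 by 1.48 and MS4A3 by 1.10. What part this played in the array differences of the neighbours of MYC was not tested.

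Expression around MYC was uneven. Of the 9 measured neighbours, 5 (TRIB1, NSMCE2, FAM91A1, RNF139 and TATDN1) were above the olfactory threshold on both arrays, against a background of 55.8% of all named genes, so the members' share of 55.6% was the share of genes in general. MTSS1 passed on replicate 2 only, and ZNF572, FAM84B and GSDMC passed on neither array. The second threshold was passed on both arrays by 2 of 9, TRIB1 and FAM91A1, against 17.1% of all genes. TATDN1 passed as the mean of 2 probe sets that disagree, and by the lower of them 4 of 9 genes passed the olfactory threshold. The median signal of the 9 genes was 4.34, which is the value of TATDN1, beside 3.33 for all named genes. With the lower probe set of each gene it was 2.92 and with the higher one 4.74, so the list's median was not settled as above or below that of all genes.

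**Figure D1:**
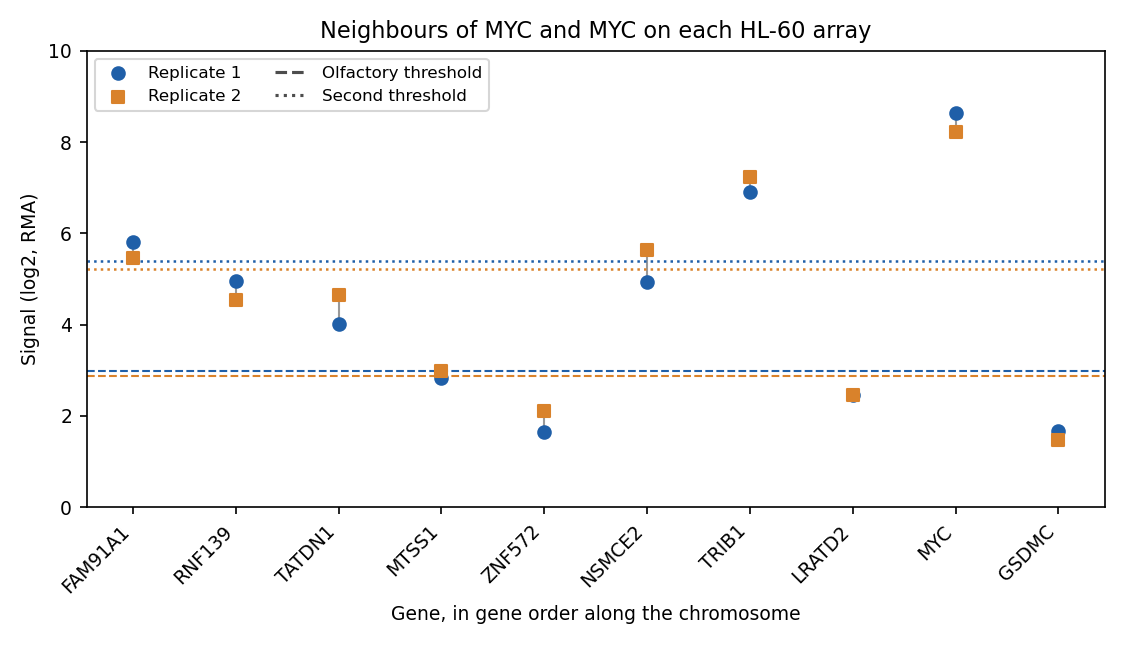
Signals (log2, RMA) of the 9 measured neighbours and MYC on the 2 arrays, placed in gene order along the chromosome, with grey lines joining the replicates and dashed and dotted lines at the olfactory and second thresholds of each array in its colour. MYC, TRIB1 and FAM91A1 (5.81 and 5.46) lie above the second threshold on both arrays, and ZNF572, LRATD2 (FAM84B) and GSDMC lie below the olfactory threshold on both.

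TRIB1 had a signal of 6.91 on replicate 1 and 7.23 on replicate 2, a mean of 7.07 ± 0.23 (SD, n = 2). Both values were above the second threshold, and the gene stood at percentile 94.4 and 96.0 of all named genes on the respective arrays. MYC itself read 8.63 and 8.21, at percentiles 99.2 and 98.6. TRIB1 was higher on replicate 2 by 0.32 and MYC lower by 0.41, and each of these differences is about as large as the SD of 0.39 over all genes.

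The genes listed with TRIB1 were its Tribbles paralogues, the COP1 ligase and its C/EBP substrates. All 9 passed the olfactory threshold on both arrays, beside 55.8% of all named genes, but most did not pass the second. On both arrays 2 of the 9 passed the second threshold, beside 17.1% of all genes. These were the cullin gene CUL4A (6.87 and 6.39) and the adaptor gene DDB1 (5.98 and 5.41). COP1, the ligase that TRIB1 recruits, read 5.01 and 5.48, above the second threshold on replicate 2 only. DET1, which joins COP1 to the DDB1 and CUL4 scaffold, read 3.93 and 4.34. CEBPA, whose protein is the substrate, read 3.81 on replicate 1 and 4.22 on replicate 2, above the olfactory threshold only. CEBPB (3.75 and 3.91) also passed the olfactory threshold only, as did COL1A1 (3.75 and 3.63) of the epithelial and stromal markers. The paralogues TRIB2 (3.38 and 4.05) and TRIB3 (4.14 and 4.96) passed the olfactory threshold but not the second. TRIB1 was therefore the only one of the 3 Tribbles genes above the second threshold. Of these 9 genes, 6 were higher on replicate 2, among them TRIB3 by 0.82 and TRIB2 by 0.67. Among all named genes above the olfactory threshold 47.7% were higher on replicate 2. The median difference of the 9 genes was 0.41, beside 0.0 for all genes above that threshold and -0.04 for all named genes.

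NSMCE2 encodes the SUMO ligase subunit of the SMC5/6 complex, which helps to resolve recombination intermediates. It read 4.93 on replicate 1 and 5.63 on replicate 2 (5.28 ± 0.50, SD, n = 2), above the olfactory threshold on both arrays and above the second on replicate 2 only. The difference of 0.70, or 1.63-fold, was the largest among the 9 neighbours with probe sets averaged, although 1 of the probe sets of TATDN1 differed by 0.85, and 7.36% of all named genes differed by at least as much. Of the 8 other genes fixed for this complex, 7 exceeded olfactory background and 3 the second threshold, beside 55.8% and 17.1% of all named genes. Those 3 were the core ATPase genes SMC6 (7.14 and 7.31) and SMC5 (6.07 and 6.45) and the subunit gene NSMCE1 (6.07 and 6.13). SLF1, which links the complex to sites of damage, was the exception, at 2.84 and 2.46 and below the olfactory threshold on both arrays. The remaining subunits NSMCE3, NSMCE4A, EID3 and SLF2 lay between 3.39 and 5.32 on the individual arrays.

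FAM91A1 encodes a partner of the WDR11 complex, which captures vesicles at the trans-Golgi network. Its signals were 5.81 and 5.46, a mean of 5.63 ± 0.25 (SD, n = 2). They exceeded the second threshold by only 0.40 and 0.24, the narrowest margin of the genes that passed it among the neighbours. All 5 genes of the WDR11 and golgin list were above the olfactory threshold on both arrays and 1 above the second, beside 55.8% and 17.1% of all named genes. TBC1D23, the bridge between this complex and the golgins, was above the second as well (6.39 and 6.11), while C17orf75 passed it on replicate 2 only (5.38 and 5.89). WDR11 (4.67 and 5.03), GOLGA4 (5.04 and 4.88) and GOLGA1 (4.08 and 4.21) lay between the thresholds.

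RNF139, also known as TRC8, encodes a multi-spanning ubiquitin ligase of the endoplasmic reticulum that binds sterols and takes part in the turnover of sterol pathway proteins. It read 4.96 on replicate 1 and 4.53 on replicate 2 (4.74 ± 0.30, SD, n = 2), above the olfactory threshold on both arrays and below the second on both. All 5 measured genes of the sterol-linked ligase list were above the olfactory threshold on both arrays, beside 55.8% of all named genes. The second threshold was passed on both arrays by 3 of them, beside 17.1% of all named genes. MARCHF6 (6.67 and 6.89), INSIG1 (6.56 and 6.04) and SCAP (5.56 and 5.62) were above the second on both arrays, and the related ligase gene RNF145 (4.65 and 5.55) was so on replicate 2 only. RNF145 was higher on replicate 2 by 0.90, and 2.91% of all named genes differed by at least as much. RNF139 was lower by 0.43, a size that 24.1% of all named genes reached. With 1 array on each side, no opposite movement of these ligase genes can be read from the differences.

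TATDN1, a member of the TatD family of DNases, was the only measured neighbour with 2 probe sets, and these disagreed. One probe set (8152759) read 2.39 on replicate 1 and 3.23 on replicate 2, below the olfactory threshold on the first array and above it on the second. The other (8180269) read 5.65 and 6.07, above the second threshold on both. Signals of different probe sets, 1 of them at background on an array, give no fold between them. The annotation lists 1 transcript accession for the brighter probe set and several for the dimmer one. The mean of the probe sets, used for the counts above, was 4.02 and 4.65 (4.34 ± 0.45, SD, n = 2), and it describes neither probe set well. Both probe sets were higher on replicate 2, by 0.85 and 0.43. In the RefSeq table the span of TATDN1 overlaps that of RNF139 at one end. The only other TatD gene measured, TATDN2, read 4.73 and 4.36.

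MTSS1, which encodes a membrane-bending I-BAR scaffold of the actin cytoskeleton, lay at the edge of detection. Its signals of 2.84 and 2.99 differed from the olfactory threshold by -0.14 on replicate 1 and 0.11 on replicate 2, both within the per-array spread of 0.28. The close paralogue MTSS2 read 5.34 and 5.25, above the olfactory threshold on both arrays and above the second on replicate 2. BAIAP2L2 also passed the olfactory threshold (3.15 and 3.06), whereas BAIAP2 (2.58 and 2.36) and BAIAP2L1 (2.01 and 2.18) did not on either array.

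The other three neighbours gave no signal above background. ZNF572, a C2H2 zinc finger gene, read 1.66 and 2.11 (1.89 ± 0.32, SD, n = 2), at percentile 4.57 of all genes on replicate 1 and 18.9 on replicate 2. FAM84B, which encodes a protein with an LRAT domain, read 2.45 and 2.46, the smallest difference between arrays among the 9 neighbours. GSDMC, one of the pore-forming gasdermins, read 1.67 and 1.47, at percentiles 4.74 and 3.51. The values of these genes are array background and give no order of expression among them.

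The LRAT-domain relatives of FAM84B were mostly below the thresholds, and the measured gasdermins other than GSDMC were divided. Of 7 other LRAT-domain genes, 1 passed the olfactory threshold on both arrays, the acyltransferase gene PLAAT5 (3.55 and 3.29), beside 55.8% of all genes. The nearest relative, LRATD1, passed on replicate 1 only (3.49 and 2.87), and the remaining 5 had values between 2.00 and 2.62. Of 3 other gasdermin genes measured, GSDMD, the executioner of inflammatory cell death in myeloid cells, passed on both arrays (4.03 and 3.81). GSDMB passed on replicate 2 only (2.68 and 3.26) and GSDME on neither (2.08 on both arrays).

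**Figure D2:**
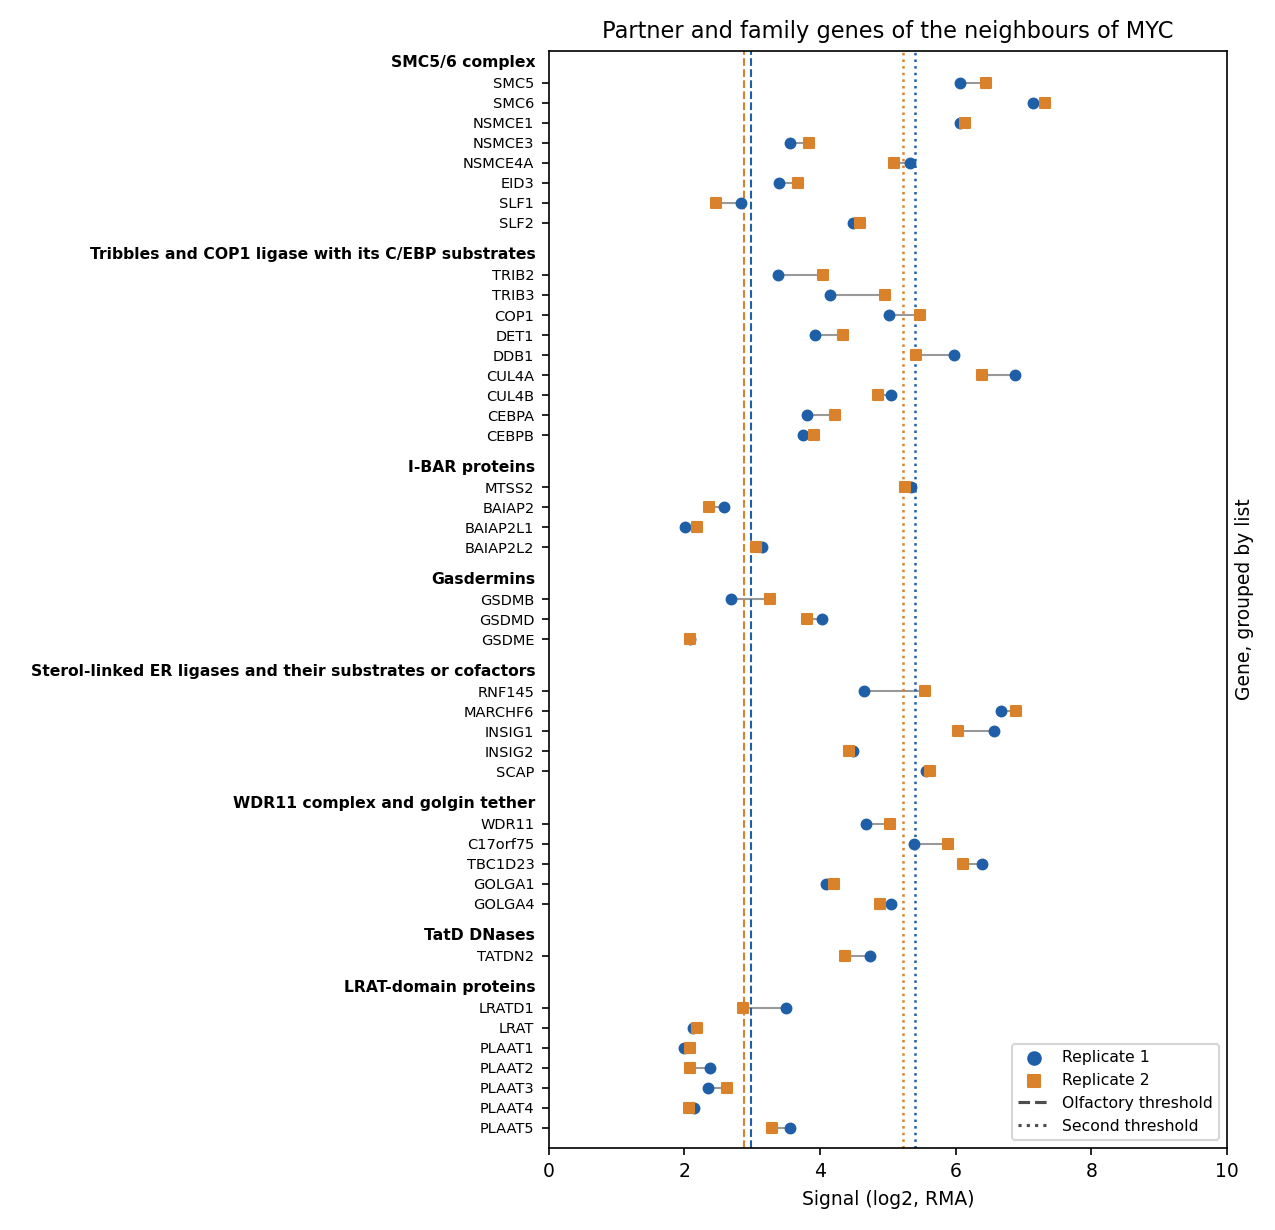
Signals (log2, RMA) of the 42 measured partner and family genes of the neighbours of MYC, one gene per line under its list, with a circle for replicate 1, a square for replicate 2 and dashed and dotted vertical lines at the olfactory and second thresholds. All genes of the Tribbles, sterol-linked and WDR11 lists lie right of the olfactory thresholds on both arrays, and most LRAT-domain genes lie left of them.

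Over all 8 partner and family lists, 31 of 42 measured genes (73.8%) exceeded olfactory background on both arrays and 9 (21.4%) the second threshold, beside 55.8% and 17.1% of all named genes. The lists held ubiquitous complexes as well as tissue-restricted families, and the 11 genes that did not pass on both arrays were SLF1, BAIAP2, BAIAP2L1, GSDMB, GSDME and 6 LRAT-domain genes.

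RefSeq gene order placed the listed neighbours among genes above and below background. Within 25 measured genes on each side of MYC there were 41 further genes, of which 20 (48.8%) were above the olfactory threshold on both arrays and 8 (19.5%) above the second. Over all 638 measured genes of the chromosome these shares were 54.5% and 14.6%, and over all named genes 55.8% and 17.1%. The flanking genes had a median signal of 2.94 and the chromosome one of 3.31. On the side before MYC 8 of 17 flanking genes exceeded olfactory background and 5 the second threshold, and on the side after it 12 of 24 and 3.

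Of the 51 genes of this window, MYC and the listed neighbours included, 26 (51%) were above the olfactory threshold on both arrays. Among all named genes the share was 55.8%. How long such stretches are elsewhere on the chromosome was not tested. Within the window the longest unbroken stretches of genes above that threshold held 4 measured genes each. One ran from SQLE to TRIB1, and it held also at both stricter olfactory thresholds, the 99th percentile and the median plus 3 scaled median absolute deviations. In it SQLE, the squalene epoxidase gene of cholesterol synthesis, read 6.81 and 6.03, and WASHC5, a subunit gene of the endosomal WASH complex, read 6.26 and 5.87, followed by NSMCE2 and TRIB1. The other ran from POU5F1B over MYC and LINC02912 to CCDC26 and was bounded by FAM84B on one side and GSDMC on the other. At both stricter thresholds POU5F1B and LINC02912 no longer passed on both arrays, and MYC and CCDC26 each stood alone. LINC02912 fell short on replicate 1 only. CCDC26 passed the 99th percentile narrowly on replicate 2, at 3.78 against 3.76. POU5F1B, a retrogene copy of POU5F1, read 3.41 and 3.54, and is uncertain because probes may match other copies. The long noncoding RNA gene CCDC26 read 3.79 and 3.78. LINC02912, the first measured gene after MYC, read 3.35 and 3.94, and its span lies inside that of PVT1 in the RefSeq table. Whether its probes also detect PVT1 transcripts was not tested. All 3 of these genes passed the olfactory threshold only.

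Another stretch, of 3 genes, held RNF139, TATDN1 (with its probe sets averaged) and NDUFB9. NDUFB9, a subunit gene of respiratory complex I next to TATDN1, read 7.78 and 8.03 and stood at percentile 98.4 on replicate 2. On its other side MTSS1 and ZNF572 formed a gap before SQLE. FAM91A1 stood alone between genes below background, with ANXA13 (1.69 on both arrays) before it and FER1L6 (2.37 and 2.03) after it. Next to RNF139 lay the tRNA-modifying enzyme gene TYW2 (2.19 and 2.11), also below the olfactory threshold. GSDMC was followed by CYRIB (6.10 and 6.49), which encodes a RAC1-binding regulator of actin, and ASAP1 (5.45 and 6.08), both above the second threshold. On replicate 1 ASAP1 exceeded it by only 0.05, within the per-array spread of 0.28.

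**Figure D3:**
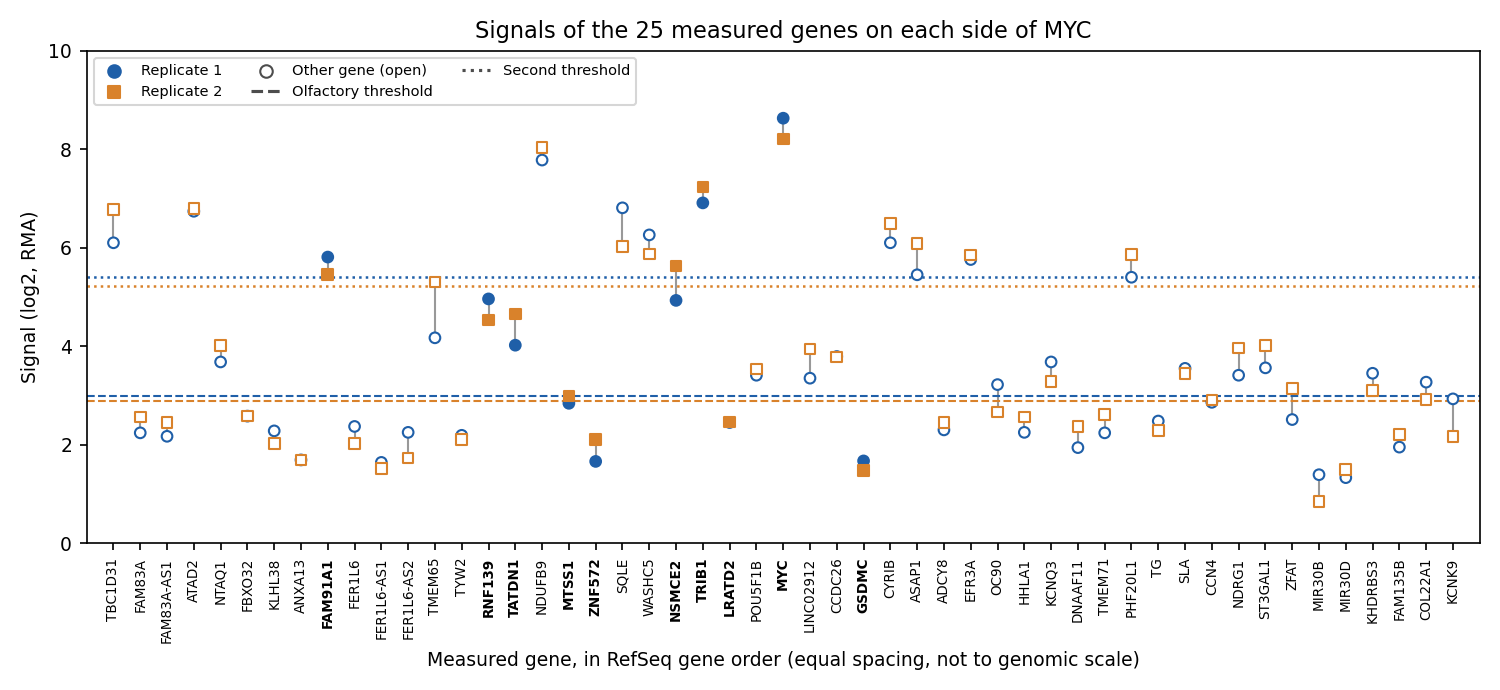
Signals (log2, RMA) of the 25 measured genes on each side of MYC in RefSeq gene order, equally spaced and not to genomic scale, with filled symbols and bold names for MYC and the listed neighbours and open symbols for the 41 other genes. Signals above the second threshold, such as those of NDUFB9, SQLE, TRIB1 and CYRIB, stand beside genes below the olfactory threshold, such as ZNF572, LRATD2 (FAM84B) and GSDMC.

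The 8 flanking genes above the second threshold were NDUFB9, SQLE, WASHC5, CYRIB and ASAP1, described above, and 3 more. These were the bromodomain ATPase gene ATAD2 (6.74 and 6.79), TBC1D31 (6.10 and 6.78) and EFR3A, which helps to anchor a lipid kinase at the plasma membrane (5.76 and 5.85).

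The neighbours did not shift together between the arrays. Of the 9 genes 6 were higher on replicate 2 and 3 lower, beside 42.1% higher on replicate 2 among all named genes, of which 962 were equal on both arrays. FAM91A1 (-0.35), RNF139 (-0.43) and GSDMC (-0.20) were lower on replicate 2, as was MYC (-0.41), while TRIB1, NSMCE2, MTSS1, ZNF572, TATDN1 and FAM84B were higher by 0.32, 0.70, 0.15, 0.45, 0.64 and 0.01. The median difference was 0.15, and -0.04 over all named genes. These counts include genes at background. Of the 5 neighbours above the olfactory threshold 3 were higher on replicate 2, with a median difference of 0.32, beside 47.7% and 0.00 for all genes above that threshold. None of the 9 differed by more than 1, a size that 1.96% of all genes exceeded. Among the flanking genes 1 of 41 did, TMEM65, a mitochondrial membrane protein gene that read 4.17 on replicate 1 and 5.30 on replicate 2. With 1 array on each side, these differences have no replicate check.

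**Figure D4:**
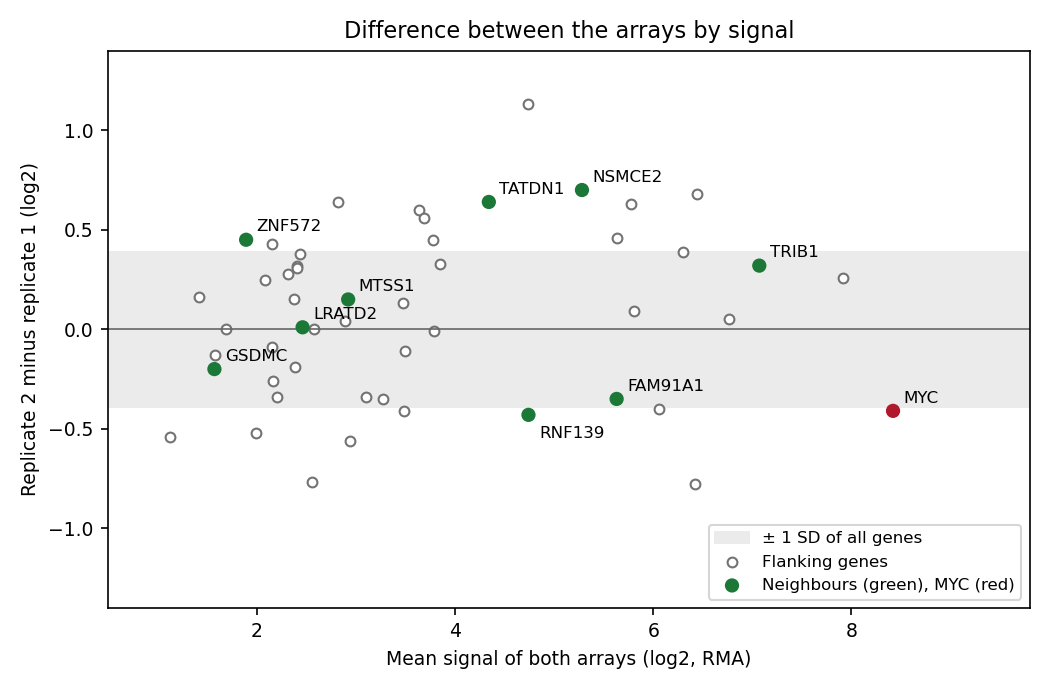
Difference between the arrays (replicate 2 minus replicate 1, log2) against the mean signal of both arrays (log2, RMA) for the 9 measured neighbours (green), MYC (red) and the 41 flanking genes (open), with the grey band at 1 SD (0.39) of the difference over all named genes. NSMCE2, TATDN1 and ZNF572 lie above the band, RNF139 and MYC just below it, and TMEM65 is the flanking gene above 1.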

How the data were processed

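Trizol-extracted, DNase-treated total RNA went through amplification and biotin labelling (NuGEN), per the labels' protocols. The authors deposited log2 values, one per probe set, from RMA, per the submitters' processing notes. Software, version and co-normalized arrays are not stated there, and base 2 is assumed as the base RMA uses. Of 32321 probe sets, the 19158 with 1 gene symbol were used, while 1388 carried several symbols and 11775 were not listed. Entrez IDs (19128 matched) gave current symbols from the RefSeq table of GRCh38.p14, used for names and gene order only, so no coordinates are given. Averaging the probe sets of a gene gave 18404 genes.

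With 1 group there was nothing to test and no p-value. The members and lists were chosen with earlier results of these data known. The text names the listed genes, MYC, partner genes, and flanking genes that passed the second threshold, differed by more than 1 or adjoin a listed gene; LINC02912 was added after its values were seen. Some partner and marker genes of the fixed lists are not reported here. The threshold code was run on simulated data in which both background families and all unshifted genes shared the same distribution. On the arrays the background families gave unlike thresholds, so the simulation cannot say which threshold is right. Alternatives were quantile normalization, loess (span 0.4), the highest or the lowest probe set per gene (the latter chosen after seeing the data), 99th percentile thresholds, the olfactory median plus 3 scaled median absolute deviations, each array alone, a filter on dim genes, the platform's symbols as given, and 15 or 40 genes on each side of MYC. The number of arrays limits the precision. Python 3.11.15, numpy 2.4.6, pandas 2.3.3, statsmodels 0.14.6 and matplotlib 3.10.9 were used.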

Additional observations from a re-analysis of the deposited data

Results flagged for a closer look

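Signal appeared in 3 probe sets that carry several gene symbols, 1 or more of them from the stretch around MYC, and that the comparisons left out for that reason. On both arrays all 3 lay above the olfactory threshold and below the second. The probe set shared by ZHX1-C8orf76 and ZHX1, a zinc finger and homeobox repressor gene, had a mean of 5.13 (5.09 on replicate 1 and 5.16 on replicate 2). That shared by ZHX1-C8orf76 and C8orf76 had a mean of 3.97 (4.36 and 3.58). The probe set shared by POU5F1, POU5F1B and 2 further copies had a mean of 3.49 (3.52 and 3.47). None of the 10 listed genes was named on such a probe set.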

How the results depend on the processing

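No paired analysis was possible because both arrays belong to 1 group. Of 107 recomputed counts and medians 89 kept within 1.5 times the count given or within 0.28 of the median given. So did 102 of 108 recomputed signals and differences of single members, within 0.28, and no difference changed sign. The margin of 0.28 is wider than the median difference of the members (0.15) and of the flanking genes (0.09), so it is a weak check on them. Repeating quantile normalization is a weak check too, because RMA already includes it. Many of the 108 values of single members could not change. Members other than TATDN1 have 1 probe set, so the highest and the lowest probe set give the same value. The platform's symbols left the members' values unchanged. The lower probe set of each gene was an alternative chosen after seeing the data. The same 5 members were above the olfactory threshold at the 95th and 99th percentile and at the median plus 3 scaled deviations, and each array alone gave 5 to 6. Above the second threshold, TRIB1 alone (1 in place of 2) remained at its 99th percentile, and the highest probe set per gene gave 3. The median signal of the members was 4.74 with the highest and 2.92 with the lowest probe set per gene, 4.02 to 4.53 on each array alone, and 5.01 among genes that either array put above background, since fewer genes enter. TATDN1 read 5.86 by its higher and 2.81 by its lower probe set in place of 4.34, and 4.02 to 4.65 on each array alone, and NSMCE2 4.93 to 5.63. Flanking genes above the olfactory threshold numbered 12 in place of 20 at the 99th percentile and likewise 12 at the median plus 3 scaled deviations. With 15 genes on each side they numbered 13 of 22 and with 40 genes 38 of 71, because other genes enter. Those above the second threshold numbered 5 in place of 8 at its 99th percentile and 13 with 40 genes on each side. The flanking median was 3.49 with 15 genes and 3.31 with 40 on each side, 2.92 to 3.22 on each array alone, and 3.79 among genes that either array put above background. Flanking genes higher on replicate 2 numbered 15 in that filter, 12 with 15 genes and 39 with 40 genes on each side, in place of 23. Background correction and scan batches, which need scanner files, were not run.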
